A study of Mus musculus with 2 samples.

Results

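The genes of the nucleolus that make ribosomes were followed in regenerating mouse liver with and without peroxisome proliferator-activated receptor β (PPARβ). A list of 38 symbols named RNA polymerase I subunits, proteins of the small nucleolar ribonucleoproteins (snoRNPs), assembly factors of both ribosomal subunits and abundant nucleolar proteins. A locus of the deposited expression table belonged to the set when its gene name, or 1 of several joined names, was on the list, and rows of the same symbol were summed. Of the 38 symbols 37 had a row, out of 32316 genes and joint loci with a symbol, and Noc2l was not analysed here. The rule itself used no measured value.

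Ribosomes are built in the nucleolus, where RNA polymerase I transcribes the precursor of the large ribosomal RNAs. Small nucleolar RNAs (snoRNAs) then guide ribose methylation (box C/D class) and pseudouridylation (H/ACA class) of that precursor, while assembly factors fold and cut it and join it to ribosomal proteins. Hepatocytes that re-enter the cell cycle after partial hepatectomy (PH), the surgical removal of most of the liver, enlarge their nucleoli and make many new ribosomes.

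Hepatic RNA came from male C57BL/6 mice 48 hr after PH and was sequenced as 1 library of wild-type (WT) and 1 of PPARβ-null (KO) liver. The sample labels give an age of 4 months for both, while the growth protocol gives a wider range and the series description a younger age. The labels name no tissue-specific driver for the loss of PPARβ and do not say how the gene was disrupted. Whether a library was made from 1 mouse or from a pool is not given in the sources used here. With 1 library per genotype there was no replicate, so no test between genotypes was possible and the variation between mice is unknown for every value below. The table headers name a different sequencing lane for each library, so genotype and lane cannot be told apart. Levels are FPKM, the fragments of a gene scaled to the length of its exons and to all mapped fragments, which is a scale per length and allows levels of different genes to be compared.

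The targeted gene, Ppard, had 2.67 FPKM in WT and 2.42 in KO, and its WT/KO ratio was 1.10 (95% counting interval 0.962 to 1.26). That value covers the whole locus, and the altered part of the gene is not given in the sources used here, so it does not check the label. KO therefore stands below for the library labelled PPARbeta-null. An FPKM of 1 on a transcript of 1 kb corresponded to about 53.0 fragments in WT and 54.4 in KO, and the 37 genes rested on about 387 to 10092 fragments per library. Intervals of ratios are exact Clopper-Pearson intervals on these estimated fragments and cover counting error only. The 7 hepatocyte markers summed to 11191 FPKM in WT and 12520 in KO, which matches the labelled tissue. Of these 7 markers 2 were lower in KO, with 1 over 1.5-fold lower and 1 over 1.5-fold higher.

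**Figure D1:**
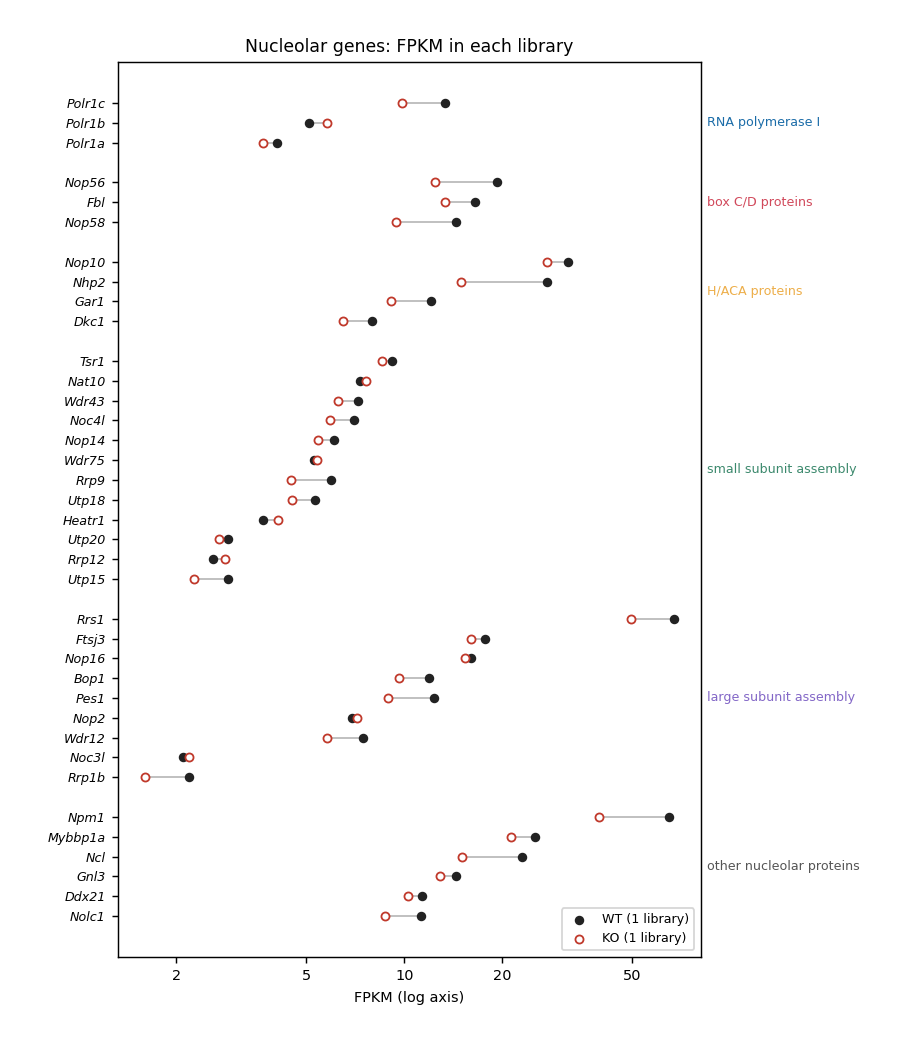
FPKM of the 37 nucleolar genes (log axis) in the WT library (filled points) and the KO library (open points), with 1 library per genotype and genes grouped by role. The open point lies left of the filled point for 30 genes, and the longest gap is that of Nhp2, at 27.5 in WT and 14.9 in KO.

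All 37 genes reached 1 FPKM in each of the libraries. Their summed FPKM was 511.9 in WT and 396.6 in KO, with a ratio of 1.29. This sum includes 67.4 in WT and 49.6 in KO from the row of Rrs1, a locus joined to Adhfe1. FPKM was lower in KO for 30 genes (81.1%) and higher for 7. Of the 11073 genes whose FPKM averaged 1 or more over the libraries, hereafter expressed genes, 75.7% were lower in KO. All expressed genes summed to 526757 FPKM in WT and 524288 in KO. A difference of over 1.5-fold was seen for 5 nucleolar genes, Nhp2, Npm1, Nop56, Ncl and Nop58, all lower in KO. These are 13.5% of the set, beside 20.2% of all expressed genes. None was over 1.5-fold higher in KO, beside 4.12% of expressed genes. None was over 2-fold lower, beside 8.89% of expressed genes.

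The median log2(KO/WT) was -0.24 for the nucleolar genes and -0.24 for all expressed genes, which is a WT/KO ratio of 1.18 in each case. The medians of the set and of all expressed genes were thus alike. After each ratio was centred on the median of all expressed genes, 19 of the 37 genes were lower in KO and 18 higher. Only Nhp2 then passed 1.5-fold, at 1.56-fold lower. The share of all expressed genes past 1.5-fold after centring was not computed. For 11 genes the direction turned with this centring, from lower to higher in KO. Of the 37 ratios 25 fell in the middle 50% of those of all expressed genes. Within the set the log2 differences ran from -0.88 for Nhp2 to 0.18 for Polr1b.

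Counting error alone was small beside these differences for most genes. The interval of the WT/KO ratio lay above 1 for 27 genes, below 1 for Polr1b and Heatr1, and held 1 for 8. It held the WT/KO ratio of the background median for 13 genes. These were Polr1a, Fbl, Dkc1, Nop10, Nop14, Rrp9, Wdr43, Utp18, Utp15, Noc4l, Bop1, Gnl3 and Mybbp1a. For these 13 depth gives no direction after centring.

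**Figure D2:**
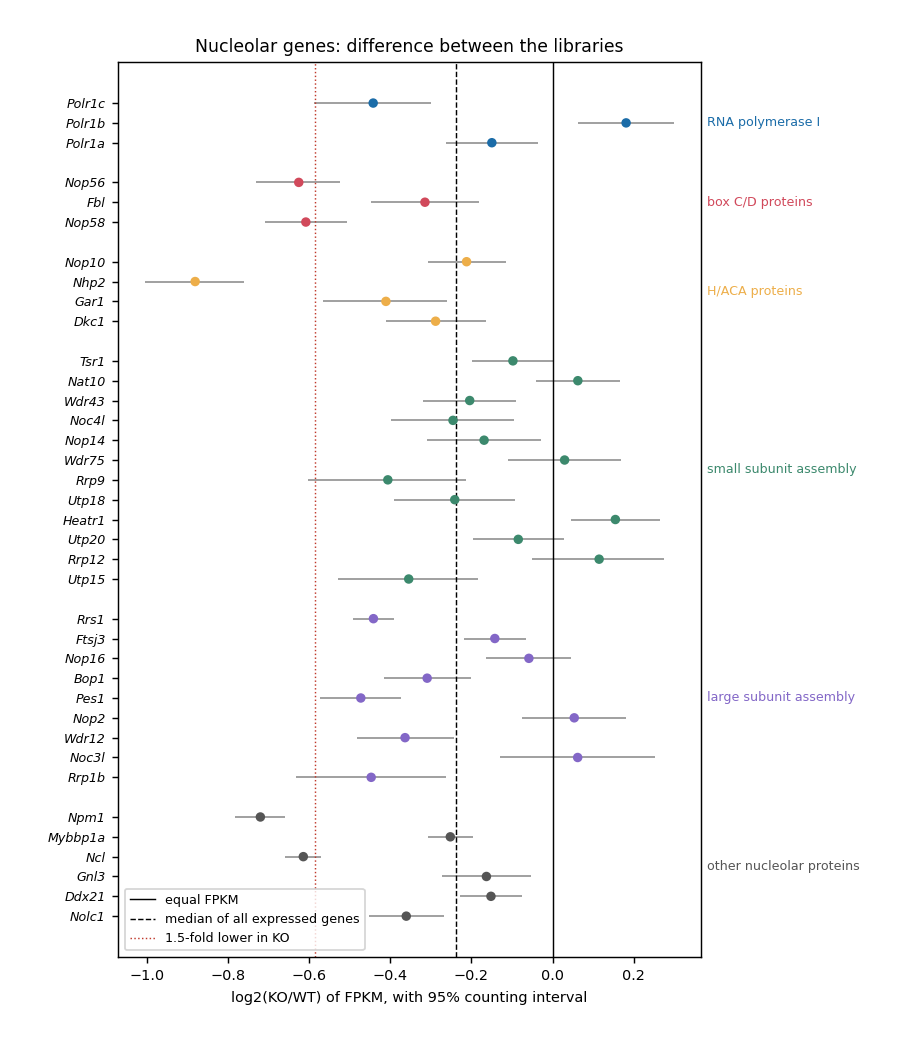
Difference of the 37 nucleolar genes as log2(KO/WT) of FPKM, with 95% counting intervals as bars, by role, where the solid line marks equal FPKM, the dashed line the median of all expressed genes (-0.24) and the dotted line 1.5-fold lower in KO. The box C/D proteins lie left of the dashed line, and 9 of the 12 small subunit factors lie right of it.

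The snoRNP proteins are shown first because 3 of the 5 genes past 1.5-fold belong to them. Box C/D snoRNPs carry out ribose methylation. Nop56, a scaffold protein of these particles, stood at 19.2 FPKM in WT and 12.4 in KO, and its ratio was 1.54 (1.44 to 1.66). Nop58, which pairs with Nop56 in the particle, had 14.4 in WT and 9.45 in KO, with a ratio of 1.52 (1.42 to 1.63). Fbl, the methyltransferase itself, had values of 16.5 and 13.3 and a ratio of 1.24 (1.13 to 1.36). All 3 proteins of the class were lower in KO, also after centring, with a median log2 difference of -0.60. For Fbl the centred direction was within counting error.

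H/ACA snoRNPs turn uridine into pseudouridine, and Nhp2 and Nop10 are small proteins of their core. Nhp2 had the largest difference of the set, 27.5 in WT and 14.9 in KO, with a ratio of 1.84 (1.69 to 2.01). Even so, it stood at only the 10.6th percentile of the log2 differences of all expressed genes. The other proteins of the same core differed less. Gar1, which helps to load and release the substrate, had 12.1 in WT and 9.08 in KO (ratio 1.33, 1.20 to 1.48). Dkc1, the pseudouridine synthase, which is also part of telomerase, had 7.94 and 6.50 (ratio 1.22, 1.12 to 1.33). Nop10 was the most abundant of them, at 31.9 in WT and 27.5 in KO, with a ratio of 1.16 (1.08 to 1.24). All 4 were lower in KO as deposited, and 3 of the 4 after centring, the exception being Nop10. For Dkc1 and Nop10 the centred direction was within counting error.

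These 2 classes of protein bind guide RNAs, and several of the nucleolar genes hold genes of such RNAs within their bounds. The annotation places 20 snoRNAs inside 7 of the 37 genes, Nop56, Nop58, Dkc1, Wdr43, Tsr1, Ncl and Gnl3, all on the strand of the host. That is 18.9% of the set, beside 3.09% of 10560 expressed protein-coding genes. The snoRNAs are 68 to 133 nt long. In 9 of the 20 the C box TGATGA lies within the first 20 nt and the D box CTGA within the last 20 nt, beside 17.8% of the 1552 annotated snoRNAs. The 5 below lie in 3 hosts that differed by over 1.5-fold and are shown because each pairs such boxes, which are the binding sites of the box C/D proteins. Capitals mark the C box and the D box, and the sequences are those of the transcribed strand from NCBIM37 (mm9). Snord110 lies in Nop56 at chr2:130101242-130101309 (+). SNORD11 and Snord11 lie in Nop58 at chr1:59761102-59761182 (+) and chr1:59761634-59761717 (+). SNORD20 and Snord82 lie in Ncl at chr1:88248583-88248662 (-) and chr1:88252836-88252905 (-).
Snord110: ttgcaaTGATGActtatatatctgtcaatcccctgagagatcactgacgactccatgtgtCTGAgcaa
SNORD11: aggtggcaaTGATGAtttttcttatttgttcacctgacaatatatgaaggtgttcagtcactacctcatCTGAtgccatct
Snord11: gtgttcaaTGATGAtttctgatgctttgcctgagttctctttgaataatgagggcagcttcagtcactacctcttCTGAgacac
SNORD20: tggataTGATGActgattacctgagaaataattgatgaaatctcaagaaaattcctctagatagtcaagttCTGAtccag
Snord82: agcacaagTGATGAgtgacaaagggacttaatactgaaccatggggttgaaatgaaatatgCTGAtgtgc

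The snoRNAs themselves could not be followed. Of the 20, 14 had a row of their own, and all 14 were listed at 0 in both libraries. Another 3 were joined to the row of Nop56 and the remaining 3 had no row. Of 1435 loci named for a snoRNA alone 53 were above 0 in a library, so a listed 0 here does not show that the RNA was missing from the liver. The 7 hosts were all lower in KO as deposited, with a median log2 difference of -0.28 and a range from -0.62 to -0.10. Among all expressed genes 75.7% were lower, with a median of -0.24. The other 30 nucleolar genes had a median of -0.24. The loci of Nop56, Dkc1, Tsr1 and Gnl3 overlap other protein-coding genes. Centring turned Wdr43, Tsr1 and Gnl3 to higher in KO.

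The next group holds general proteins of the nucleolus, among them the abundant Npm1 and Ncl. Npm1, nucleophosmin, a chaperone of ribosome assembly and export, stood at 65.2 FPKM in WT and 39.6 in KO, and its ratio was 1.65 (1.58 to 1.72). Processed copies of Npm1 elsewhere in the genome can share its reads, so this level is uncertain. Ncl, nucleolin, which binds the ribosomal RNA precursor, had 23.1 in WT and 15.1 in KO, with a ratio of 1.53 (1.48 to 1.58). Its annotated transcript of 8257 nt is longer than that of all but 1 other gene of the set, so its fragments, and with them its narrow interval, rest on that model.

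The other 4 proteins of this group differed by less. Nolc1, a chaperone of snoRNPs in the nucleolus, had 11.2 in WT and 8.74 in KO, with a ratio of 1.28 (1.20 to 1.37). Mybbp1a, a nucleolar partner of transcription factors, had 25.2 and 21.2 (ratio 1.19, 1.15 to 1.24), in a locus joined to Ggt6. The other pair differed still less. Gnl3, nucleostemin, a GTPase of proliferating cells, had 14.4 and 12.9 (ratio 1.12, 1.04 to 1.21). Its locus overlaps 5 other coding genes. Ddx21, an RNA helicase that couples RNA polymerase I with processing, had 11.4 and 10.2 (ratio 1.11, 1.05 to 1.17). All 6 genes of the group were lower in KO as deposited, while Gnl3 and Ddx21 were higher after centring. The median of the group was -0.30.

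RNA polymerase I showed no common direction. Polr1a, the largest subunit, which forms the active site with Polr1b, stood at 4.08 FPKM in WT and 3.67 in KO, and its ratio was 1.11 (1.03 to 1.20). Polr1b, the second largest, was the gene with the greatest excess in KO, 5.09 in WT and 5.78 in KO, or 1.13-fold higher. Polr1c, a subunit shared with RNA polymerase III, had 13.3 and 9.82, a ratio of 1.36. The locus of Polr1c also reaches the coding genes Xpo5 and Yipf3, so part of its signal may be theirs. After centring Polr1a and Polr1b were higher in KO and Polr1c lower.

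The 12 assembly factors of the small subunit had a median log2 difference of -0.13, the nearest to equality of all roles. None passed 1.5-fold, beside 20.2% of all expressed genes in the lower and 4.12% in the higher direction. As deposited 8 were lower in KO and 4 higher, while after centring 3 were lower and 9 higher. Factors that act early, on the precursor still being transcribed, form the UTP-A complex. Among its members Wdr43 had 7.20 in WT and 6.25 in KO (ratio 1.15), and Utp15 had 2.88 and 2.26 (ratio 1.28). Wdr75, of the same complex, had 5.28 and 5.39, which is within counting error of equality (interval of the ratio 0.890 to 1.08). Heatr1, the largest protein of the complex, was 1.11-fold higher in KO, at 3.69 in WT and 4.11 in KO. The complex thus held genes on both sides of equality.

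The other factors of the small subunit were spread in the same way. Rrp9, a protein of the snoRNP that guides the first cleavages, had 5.95 in WT and 4.49 in KO, the largest ratio of the group at 1.32 (1.16 to 1.52). Utp18 of the UTP-B complex had 5.33 and 4.51 (ratio 1.18). Utp20, a very large scaffold of 62 annotated exons, had 2.87 and 2.71 (ratio 1.06, 0.981 to 1.14). Nop14 and Noc4l bind each other on the precursor of the small subunit. Nop14 had 6.09 in WT and 5.42 in KO (ratio 1.12), and Noc4l had 7.01 and 5.91 (ratio 1.19). The intervals of the last 3 genes of the group all held 1. Nat10, which acetylates ribosomal RNA, had 7.29 and 7.61 (interval of the ratio 0.892 to 1.03). Rrp12, needed for export of the precursor particle, had 2.60 and 2.81 (0.827 to 1.03). Tsr1, a factor of late maturation in the cytoplasm, had 9.14 and 8.54 (0.998 to 1.15).

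Of the 10 listed assembly factors of the large subunit 9 were measured. Their median log2 difference was -0.31, with 7 lower in KO and 2 higher as deposited, and 5 lower and 4 higher after centring. None passed 1.5-fold, beside 20.2% of all expressed genes in the lower and 4.12% in the higher direction. Pes1, Bop1 and Wdr12 form the PeBoW complex, which is required for processing of the large subunit precursor. Pes1, summed over 2 rows, had 12.4 in WT and 8.92 in KO, with a ratio of 1.39 (1.29 to 1.49). Bop1 had 11.9 and 9.62, a ratio of 1.24 (1.15 to 1.33). Wdr12 had 7.47 and 5.81, a ratio of 1.29 (1.18 to 1.40). The 3 genes of this complex were lower in KO to a like degree, also after centring, but each locus overlaps another coding gene. For Bop1 the centred direction was within counting error.

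Rrs1, which brings the smallest ribosomal RNA into the particle, had the highest value of the set, 67.4 in WT and 49.6 in KO (ratio 1.36, 1.31 to 1.41). This row is a joint locus with Adhfe1, a metabolic enzyme of the liver, and its FPKM cannot be assigned to Rrs1 alone. Rrp1b, a nucleolar factor of the same pathway, had 2.18 and 1.60 (ratio 1.36, 1.20 to 1.55), the lowest level of the set in KO. Ftsj3, a methyltransferase of the precursor particle, had 17.7 in WT and 16.0 in KO (ratio 1.10, 1.05 to 1.16). The genes left showed no difference that counting error could not give. Nop16, a protein of the early precursor particle, had 16.0 and 15.4, and the interval of its ratio held 1 (0.968 to 1.12). The methyltransferase Nop2 had 6.91 and 7.17 (0.882 to 1.05), and Noc3l, which binds the large subunit precursor, had 2.09 and 2.18 (0.840 to 1.09).

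**Figure D3:**
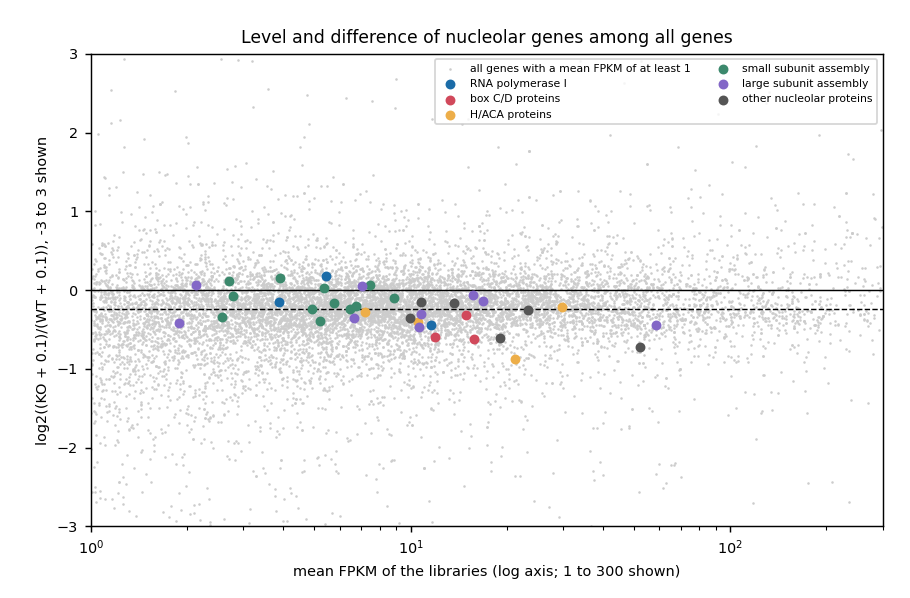
Mean FPKM of the libraries (log axis) against log2((KO + 0.1)/(WT + 0.1)) for expressed genes (grey) and the 37 nucleolar genes (colours by role), within the ranges shown on the axes, where the solid line is equality and the dashed line the median of all expressed genes. The 7 nucleolar genes above the solid line have a mean FPKM of 2.14 to 7.45.

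The 7 genes that were higher in KO as deposited had a mean FPKM from 2.14 for Noc3l to 7.45 for Nat10, and the intervals of 5 of them held 1. All 19 genes of the set with a higher mean were lower in KO as deposited, but so were the other 11, among them the least abundant, Rrp1b. After centring the 18 genes higher in KO included the abundant Nop10, Ftsj3 and Nop16. Across the 37 genes Spearman's correlation between mean FPKM and the log2 difference was -0.47, whereas across all expressed genes it was 0.15. Between transcript length and the log2 difference it was 0.43 across the 37 genes and 0.016 across 11028 expressed genes. Level and length thus ordered the set to a like degree. These correlations were taken across genes within 1 pair of libraries, and genes are not independent replicates.

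Where the 5 genes past 1.5-fold lie in the genome bears on how cleanly they were measured. Nhp2 has 4 exons, and its locus at chr11:51433237-51449398 on NCBIM37 runs on into Rmnd5b. Nop56, with 12 exons on the plus strand, lies in a locus at chr2:130100166-130110283 that reaches Idh3b. Npm1 (11 exons, minus strand) lies at chr11:33052287-33063206, Nop58 (15 exons, plus strand) at chr1:59741853-59768968 and Ncl (14 exons, minus strand) at chr1:88240432-88256110. These 3 loci overlap no other protein-coding gene. Nop58 and Ncl hold snoRNA genes, and processed copies of Npm1 can share its reads. In all, 13 of the 37 loci overlap another protein-coding gene. Besides Nhp2 and Nop56 they are those of Polr1c, Dkc1, Rrp9, Utp18, Tsr1, Rrs1, Pes1, Bop1, Wdr12, Gnl3 and Mybbp1a. Among the 24 loci without such overlap, 3 were over 1.5-fold lower in KO, Npm1, Ncl and Nop58, beside 20.2% of all expressed genes. The median log2 difference of the 24 was -0.16, nearer to equality than the -0.24 of all expressed genes. Those values of all expressed genes include overlapping loci. The overlap was considered after the values were known.

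Other genes of the same pathway were read from a wider list. Of 131 further ribosome biogenesis genes 124 were expressed, and 95 of them (76.6%) were lower in KO as deposited. Over 1.5-fold lower were 10 (8.06%, beside 20.2% of all expressed genes) and over 1.5-fold higher none. Their median log2 difference was -0.13, nearer to equality than the -0.24 of all expressed genes, so that 80 of the 124 were higher in KO after centring.

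Among RNA polymerase I genes of the wider list the median was -0.04 (n = 10). Ubtf, the factor that shapes the promoter of ribosomal DNA, had 13.3 in WT and 13.4 in KO. Polr1d, a subunit, had 29.4 and 25.3. Rrn3, the initiation factor, had 8.36 and 6.72, and Taf1d, of the promoter selectivity factor, 6.30 and 4.19, just over 1.5-fold lower. The remaining named genes of this role went the other way. Cd3eap, a further subunit, was higher in KO, at 2.11 in WT and 2.68 in KO. Ttf1, which ends transcription of ribosomal DNA, had 2.34 and 2.68. After centring 7 of the 10 were higher in KO.

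The snoRNP assembly genes of the wider list resembled the snoRNP proteins, with a median of -0.52 (n = 7), beside -0.24 for all expressed genes. Over 1.5-fold lower were 3 (42.9%), beside 20.2% of all expressed genes. Most of the 7 genes build the particles without remaining in them. Ruvbl2, an ATPase, had 7.63 in WT and 4.30 in KO (ratio 1.77, 1.59 to 1.98). Pih1d1, an adaptor of that chaperone complex, had 28.3 and 16.8 (ratio 1.68, 1.56 to 1.82). Both belong to the complex that hands new snoRNP proteins to one another. Nhp2l1, the first protein to bind box C/D RNA, had 28.2 and 22.8 (ratio 1.24). Shq1, a chaperone of Dkc1, went the other way, 1.72 in WT and 2.04 in KO, with an interval that held 1 (0.691 to 1.03). Of these 7 genes 5 were lower in KO after centring.

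The assembly factors of the wider list stayed near equality as deposited. The 44 small subunit genes had a median of -0.08, beside -0.24 for all expressed genes, and 30 were higher in KO after centring. None passed 1.5-fold, beside 20.2% of all expressed genes in the lower and 4.12% in the higher direction. Imp3 had 29.4 in WT and 27.9 in KO, and Rcl1, a factor of precursor cleavage, had 47.2 and 59.7, 1.26-fold higher in KO. Riok2, a kinase of late maturation, had 10.0 and 6.88 (ratio 1.46), and Rrp8 6.43 and 4.43 (ratio 1.45). Ngdn had 10.2 in WT and 11.7 in KO. The large subunit genes resembled them. The 51 genes of that role had a median of -0.11, and 37 were higher in KO after centring. Only 2 (3.92%) passed 1.5-fold, both lower in KO, beside 20.2% of all expressed genes. Lyar had 8.54 and 4.62 (ratio 1.85, 1.63 to 2.10) and Tex10 4.18 and 2.49 (ratio 1.68). Abundant genes of the role lay on both sides of equality. Eif6, which keeps the subunits apart, had 53.2 and 50.8, while Bccip had 38.5 and 45.5. Mdn1, the giant ATPase of the large subunit precursor, was 1.33-fold higher in KO, at 2.23 in WT and 2.95 in KO.

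The RNA exosome, which trims the precursor, had a median of -0.42 (n = 12), with 11 genes lower in KO as deposited and 8 after centring. Of all expressed genes 75.7% were lower in KO as deposited, with a median of -0.24. Dis3, a catalytic subunit, had 4.46 in WT and 2.36 in KO, with a ratio of 1.89 (1.69 to 2.11). Exosc9 had 10.5 and 5.79, a ratio of 1.81 (1.62 to 2.02). These belong to the 4 exosome genes (33.3%) that were over 1.5-fold lower, beside 20.2% of all expressed genes. The most abundant subunits differed less, Exosc7 with 19.1 and 14.8 and Exosc5 with 15.2 and 12.5. Exosc4 had 6.59 and 7.08, within counting error of equality.

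**Figure D4:**
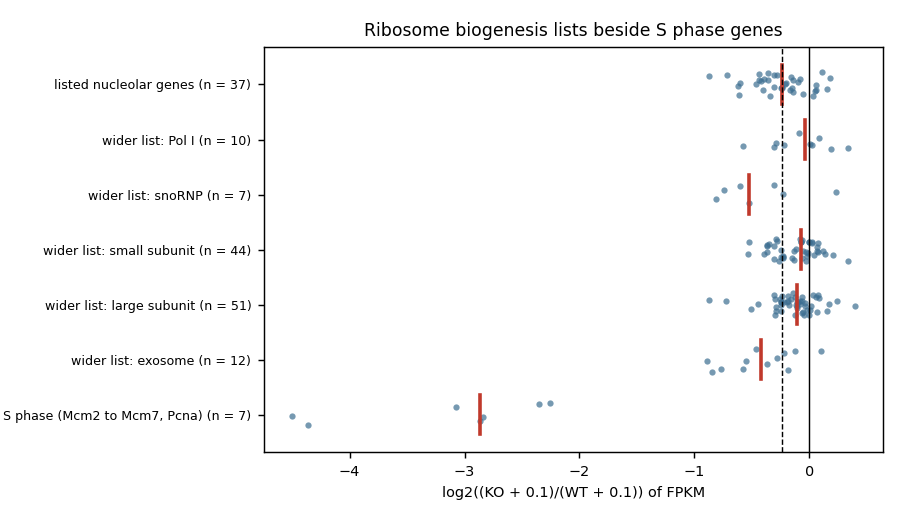
Log2((KO + 0.1)/(WT + 0.1)) of each expressed gene (points, spread vertically to be visible) in the nucleolar set, the 5 roles of the wider list and the S phase list, with the median of each list as a red bar, the median of all expressed genes (-0.24) as a dashed line and equality as a solid line. The S phase genes have a median of -2.87, far left of the nucleolar genes.

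Genes of DNA synthesis gave a measure of how far growth-related transcripts could differ between the same libraries. All 7 S phase genes, the Mcm2 to Mcm7 helicase subunits and Pcna, were over 1.5-fold lower in KO, beside 20.2% of all expressed genes. Their median log2 difference was -2.87. Mcm2 had 10.0 in WT and 1.32 in KO (ratio 7.61, 6.65 to 8.74). Pcna, the sliding clamp, had 66.8 and 13.0 (ratio 5.13, 4.80 to 5.48). The lowest ratio of these 7, 4.89 for Mcm7, was above the 1.84 of Nhp2. None of the 161 expressed genes on either ribosome biogenesis list was 2-fold lower in KO, beside 8.89% of all expressed genes.

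Myc and its partners are the best known transcriptional regulators of nucleolar genes, and they bind the E-box CACGTG. Myc stood at 3.35 FPKM in WT and 2.46 in KO, and its ratio was 1.36 (1.17 to 1.58). Its partner Max had 9.26 and 7.47 (ratio 1.24). Of the 11 genes of the network 10 were expressed and all 10 were lower in KO as deposited, with a median of -0.26. Among all expressed genes 75.7% were lower, with a median of -0.24. After centring 5 of the 10 were lower in KO. Mycl1, at 1.75 and 0.832, was the only one of the 10 (10%) over 1.5-fold lower, beside 20.2% of all expressed genes. Mycn, the gene below a mean of 1 FPKM, went the other way, with 0.296 in WT and 0.733 in KO, 2.47-fold higher in KO (interval of the WT/KO ratio 0.277 to 0.586).

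The other expressed genes of the network include the Max partners that oppose Myc. Mxd1 had 1.39 in WT and 0.944 in KO, and Mxd3 had 13.6 and 11.8. Mxd4 had 13.6 and 13.0, and Mxi1 had 3.21 and 2.83. None of these reached 1.5-fold. Mnt had 4.54 and 4.31, and Mga 3.54 and 2.65. The related factor Mlx was the most abundant, at 67.1 and 63.7.

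Promoters of the nucleolar genes were read for 3 short motifs, in windows from 250 bases before to 50 after each start, as given by RefSeq on GRCm38.p6. No such window was found for Bop1, Fbl, Rrp12, Npm1 and Rrs1, so these genes are missing from the medians below. Of the 37 genes 32 had such a window. The E-box CACGTG, which reads the same on both strands, was found in 7 of them (21.9%), Wdr43, Utp20, Utp18, Tsr1, Nop2, Pes1 and Mybbp1a. It was present in 8.09% of the windows of 27025 genes and in 12.1% of those of 7605 other expressed genes. The 7 genes with it had a median log2 difference of -0.20 (-0.47 to 0.05), and the 25 without it -0.24 (-0.88 to 0.18).

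The ETS-type motif CCGGAAG, on either strand, was found in 9 of the 32 windows (28.1%), beside 9.93% of all genes and 20.9% of other expressed genes. The 9 genes with it had a median log2 difference of -0.24 and the other 23 of -0.21. The E2F-type motif GCGGGAA was found in 5 (15.6%), those of Nop58, Nhp2, Utp15, Noc3l and Nolc1, beside 5.29% and 10.0%. The 5 genes had a median of -0.36 and the other 27 of -0.20, with ranges that overlap. A match of letters is a description of the window and does not show that a factor binds there. The promoters below are those of Pes1 and Nop2, which had the lowest and the highest KO/WT ratio of the genes with an E-box, and of Nhp2, which differed most and has none. Capitals mark the E-box. They lie on GRCm38.p6 at chr11:3963725-3964024 (+), chr6:125131633-125131932 (+) and chr11:51619523-51619822 (+).
Pes1: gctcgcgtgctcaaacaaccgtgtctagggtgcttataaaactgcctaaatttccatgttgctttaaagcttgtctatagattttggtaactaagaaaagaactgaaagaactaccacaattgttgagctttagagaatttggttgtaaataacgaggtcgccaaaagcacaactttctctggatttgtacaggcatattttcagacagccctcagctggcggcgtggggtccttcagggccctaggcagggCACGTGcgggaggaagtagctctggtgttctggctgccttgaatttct
Nop2: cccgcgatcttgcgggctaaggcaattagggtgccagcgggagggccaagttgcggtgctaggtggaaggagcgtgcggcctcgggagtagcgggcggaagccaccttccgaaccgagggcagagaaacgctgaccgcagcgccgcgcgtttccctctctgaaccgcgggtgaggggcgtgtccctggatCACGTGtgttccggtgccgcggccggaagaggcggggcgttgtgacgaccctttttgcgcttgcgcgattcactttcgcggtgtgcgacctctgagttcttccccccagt
Nhp2: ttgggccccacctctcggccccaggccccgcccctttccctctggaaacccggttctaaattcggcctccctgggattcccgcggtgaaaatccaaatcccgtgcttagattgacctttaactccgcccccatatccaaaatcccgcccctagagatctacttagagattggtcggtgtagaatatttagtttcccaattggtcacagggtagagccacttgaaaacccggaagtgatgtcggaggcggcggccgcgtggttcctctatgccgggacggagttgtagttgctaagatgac

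Liver RNA is a mixture of cell types, and fewer cells of a type cannot be told apart from less RNA per cell. Markers of most other liver cell types were lower in KO. Of all expressed genes 20.2% were over 1.5-fold lower. The 7 macrophage markers summed to 59.7 FPKM in WT and 37.3 in KO with 6 of the 7 over 1.5-fold lower. The 7 endothelial markers summed to 50.3 and 36.4, with 5 over 1.5-fold lower. The 7 stellate cell markers summed to 45.2 and 17.5, with 4 over 1.5-fold lower. Of the 7 neutrophil markers 2 were expressed and both were over 1.5-fold lower, with sums of 12.9 and 6.93 over the list, while the granule and surface markers Ly6g, Mpo and Camp were listed at 0 in both libraries. Lymphocyte markers summed to 0.697 and 0.409, with none of 7 expressed. The 6 erythroid markers found, 3 of them expressed, summed to 295.4 and 251.9, with 1 over 1.5-fold higher in KO and none over 1.5-fold lower. Nucleolar genes are expressed in all of these cells, and the part of cell composition in their differences was not tested.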

How the data were processed

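The authors aligned reads of each liver library to NCBI37 (mm9) with TopHat 2.0.0, assembled transcripts with Cufflinks 1.3.0 and estimated FPKM per locus with Cuffdiff. The deposited FPKM values are scaled to exon length and mapped fragments, and whether quartile normalization was used is not given in the sources used here. The library kit named in the labels does not mark strand, so overlapping genes share signal. Labels name paired-end reads, the methods single-end reads. The fold changes, statistics, p-values and q-values of the authors' own comparison were not used.

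Rows of the same symbol were summed and 21 rows marked HIDATA were left out. Joint loci were given to each symbol and counted once among all genes. Expressed genes had a mean FPKM of at least 1. For log2 ratios 0.1 FPKM was added to each value, which makes changes of low genes look smaller, and printed ratios had nothing added. A gene was counted past the threshold at over 1.5-fold. Fragments were estimated from FPKM, the longest coding transcript of GENCODE vM1 and the FPKM of 1 fragment on 1 kb, read from 117 single-exon genes in WT and 115 in KO. The 95% intervals rest on them. Coordinates are on NCBIM37, counted from 1, unless GRCm38.p6 is named. Values were computed in Python 3.11.15 (scipy 1.17.1, pandas 2.3.3, numpy 2.4.6) and drawn with matplotlib 3.10.9. The steps were tested on simulated libraries.

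The genes named were every listed nucleolar gene, in each role of the wider list the 2 of highest mean and, among genes reaching 1 FPKM in each library, the 2 that differed most in either direction, the expressed Myc network genes, Ppard, Mcm2 and Pcna. Mycn, Mcm7, Ly6g, Mpo and Camp were named after their values were seen. The nucleolar genes and all lists were chosen with earlier results of these data known. Alternatives covered the pseudocount, scaling, filter on low FPKM, fold, repeated rows, joint loci and row status.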

Additional observations from a re-analysis of the deposited data

How the results depend on the processing

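Leaving out a library could not be tried. No paired analysis was possible because each genotype has a single library. Centring on the median of all expressed genes moved the median log2 difference of the nucleolar genes to -0.0031 and that of the wider list to 0.11, and left 1 nucleolar gene and 4 genes of the wider list over 1.5-fold lower in KO. Equal upper quartiles gave medians of -0.015 and 0.10 and the same counts of 1 and 4. The share of all expressed genes over 1.5-fold lower was not computed under these scalings. As deposited it was 20.2%. A fold of 2 gave 0 genes on each list, beside 8.89% of all expressed genes. With WT over 25% above KO as the threshold, 14 nucleolar genes (37.8%) and 23 of the wider list (18.5%) passed, beside 40.7% of all expressed genes. Without loci that overlap another protein-coding gene, an alternative chosen after seeing the data, 3 of 24 nucleolar genes were over 1.5-fold lower. The median of the 24 was -0.16, beside -0.24 for all expressed genes. Under the remaining alternatives the nucleolar median ran from -0.28 to -0.21, with 4 or 5 genes over 1.5-fold lower. That of the wider list ran from -0.18 to -0.11, with 8 to 10 such genes. At a mean FPKM of at least 5 the medians were -0.28 for 29 nucleolar genes and -0.18 for 90 of the wider list. The median of all genes at that level was -0.21, so the distance of each list from all genes depends on this filter. No alternative gave a nucleolar gene over 1.5-fold higher in KO. For the 8 nucleolar genes whose counting interval held 1, depth gives no direction.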

Other observations

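Genes named as hosts of snoRNAs that code for no known protein were looked at after the values of the nucleolar genes had been seen. Of the 8 such genes in the table (Gas5 and the Snhg series) 7 were expressed, and all 7 were lower in KO as deposited, with a median log2 difference of -0.46. Of all expressed genes 75.7% were lower in KO, with a median of -0.24. Over 1.5-fold lower were 2 of the 7, beside 20.2% of all expressed genes. Snhg5 stood at 6.09 FPKM in WT and 2.85 in KO, and its WT/KO ratio was 2.14. Snhg3 had 15.4 and 7.75, a ratio of 1.99. The most abundant, Gas5, whose RNA decays fast while it is being translated, had 62.2 and 45.6, a ratio of 1.36. Snhg12 differed least, at 7.64 and 7.16, and was higher in KO once centred on the median of all expressed genes. Snhg9 was listed at 0 in both libraries.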
